A study of Homo sapiens with 22 samples.

Results

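PPP2R2A encodes a regulatory subunit of protein phosphatase 2A (PP2A), and its promoter is among the strongest WDR5 sites in CHP-134 neuroblastoma cells. It was followed here with 9 other PP2A subunit genes, PPP2CA, PPP2CB, PPP2R1A, PPP2R1B, PPP2R2B, PPP2R2C, PPP2R2D, PPP2R5A and PPP2R5C, which makes 10 of 20136 protein-coding genes. A peak was given to a gene when any of its bases lay within 1 kb of any annotated transcription start site (TSS) of that gene. By this rule 33 of the 94408 peaks of 16 peak lists belong to the 10 genes. PPP2R2A was chosen by its WDR5 fold enrichment in DMSO-treated CHP-134 cells, at a site that also held N-MYC, so those values are a description and carry no test.

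PP2A is a serine and threonine phosphatase built from a scaffold subunit (PPP2R1A or PPP2R1B), a catalytic subunit (PPP2CA or PPP2CB) and an exchangeable regulatory subunit that directs the enzyme to its substrates. The PPP2R2 genes encode the B55 regulatory subunits, and PPP2R2A encodes B55α, which acts in the exit from mitosis. The PPP2R5 genes encode the B56 regulatory subunits, and complexes with the product of PPP2R5A remove a stabilizing phosphate from MYC proteins. WDR5 is a chromatin scaffold protein that binds MYC proteins, and N-MYC is the MYC family member that is amplified in many aggressive neuroblastomas.

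ChIP-seq of N-MYC and WDR5 had been performed in CHP-134 and IMR-32, which are both N-MYC amplified neuroblastoma lines. CHP-134 cells received DMSO or a compound for 4 h, with 3 libraries per antibody and treatment. No treatment is listed for IMR-32 cells, which have 2 libraries per antibody (replicates 1 and 2 for N-MYC, 1 and 3 for WDR5). The labels give the DMSO dose as 0.0005% in one place and 0.005% in another, and they name the compound in 3 different ways with no dose, so it is called the compound here. Each library pooled 3 ChIPs from the same sample, N-MYC was precipitated with a custom serum, and 6 IgG samples were not analysed here. CHP-134 libraries were sequenced as single reads and IMR-32 libraries as paired end reads. Line, sequencing and any difference in DMSO treatment therefore cannot be told apart between the lines.

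The lists are uneven, which touches every result on the compound. N-MYC lists of DMSO-treated cells hold 15286, 9125 and 12283 peaks (replicates 1, 2 and 3), and those of compound-treated cells hold 11249, 2964 and 12313. WDR5 lists hold 4891, 1758 and 1671 peaks with DMSO but 5973, 15 and 401 with the compound. The IMR-32 lists hold 8286 and 5242 N-MYC peaks and 1693 and 1258 WDR5 peaks. The lists give no read totals, so depth is unknown. A gene without a peak is one where nothing passed the authors' q-value, and the protein may still have been bound there. Peak height is given as the percentile of the authors' fold enrichment within its own list, that is the percent of the list's peaks with a lower fold.

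Of the 10 subunit genes, PPP2R2A was the only one with both N-MYC and WDR5 in every CHP-134 DMSO list and every IMR-32 list, a state shared by 315 protein-coding genes (1.56%). PPP2R5C carried WDR5 in the same 5 WDR5 lists and had no N-MYC peak in any list. PPP2R5A and PPP2CA carried N-MYC in at least 2 DMSO lists at lower percentiles. PPP2CB, PPP2R1A, PPP2R1B and PPP2R2B each had a peak in only 1 or 2 of the 16 lists, and PPP2R2C and PPP2R2D had none in any list.

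**Figure D1:**
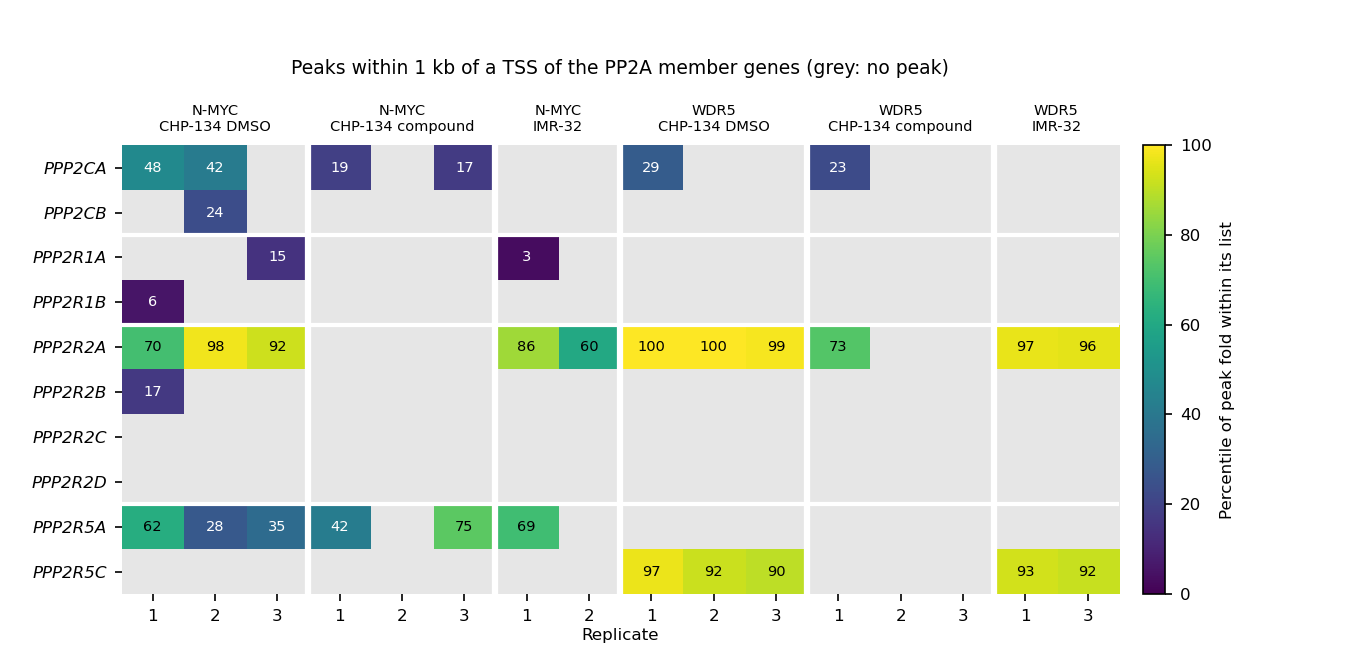
Percentile of the highest peak within 1 kb of a TSS, for the 10 PP2A subunit genes (rows, grouped as catalytic, scaffold, B55 and B56 subunits) in the 16 libraries (columns). Grey cells have no peak, and the rows of PPP2R2A and PPP2R5C hold the high WDR5 values while all 3 N-MYC libraries of the compound are empty at PPP2R2A.

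Counting genes with a peak in at least 2 lists of a group, N-MYC was at 3 of the 10 genes in CHP-134 cells with DMSO (PPP2CA, PPP2R2A and PPP2R5A), against 39.4% of all protein-coding genes. With the compound it was at 2 of the 10 (PPP2CA and PPP2R5A), against 31.3%, and in IMR-32 cells at PPP2R2A, against 16.2%. WDR5 was at 2 of the 10 with DMSO (PPP2R2A and PPP2R5C), against 8.73%, at the same 2 in IMR-32 cells, against 4.99%, and at 0 with the compound, against 1.37%. The counts of so few genes are a description and were not tested.

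PPP2R2A (ENSG00000221914, hg19 chromosome 8, 26149024 to 26230196, plus strand) starts at 26149024, and no other annotated gene has a TSS within 1 kb of its peaks. The WDR5 percentiles there were 99.8, 99.97 and 98.5 in DMSO replicates 1, 2 and 3, with folds of 65.6, 78.3 and 61.3. By fold these peaks rank 10 of 4891, 1 of 1758 and 25 of 1671, and by its mean percentile of 99.4 ± 0.787 (SD, n = 3) PPP2R2A stood at rank 2 of the 823 genes with WDR5 in every DMSO list. RPS3, just above it, has a mean of 99.7, and RPL7, just below, 99.4. The peaks are wide, at 1245, 1150 and 1330 bp, where the median peak of these lists is 430 to 449 bp.

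N-MYC at PPP2R2A was high in DMSO-treated cells but less even. Its percentiles were 70.0, 97.7 and 92.3 in replicates 1, 2 and 3, a mean of 86.7 ± 14.6 (SD, n = 3), and replicate 1 lies apart from the other two. The folds were 6.15, 12.4 and 9.97. For comparison, the median gene with an N-MYC peak stands at 55.2 to 60.7 in these lists.

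Both proteins peaked at the same place, inside exon 1. The WDR5 summits were 244, 247 and 247 bp downstream of the TSS and the N-MYC summits 265, 263 and 293 bp downstream, and all lie in the untranslated part of exon 1. Every WDR5 summit was upstream of every N-MYC summit, by a mean of 27.7 bp. These peaks are from the DMSO lists in which the gene was chosen, so the distance is given with no test. Such a separation of all 6 summits is common, being found at 46.6% of the 573 genes with both proteins in all DMSO lists and summits within 1 kb. A mean distance as short as at PPP2R2A was found at 20.2% of them, and their median was 86 bp.

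**Figure D2:**
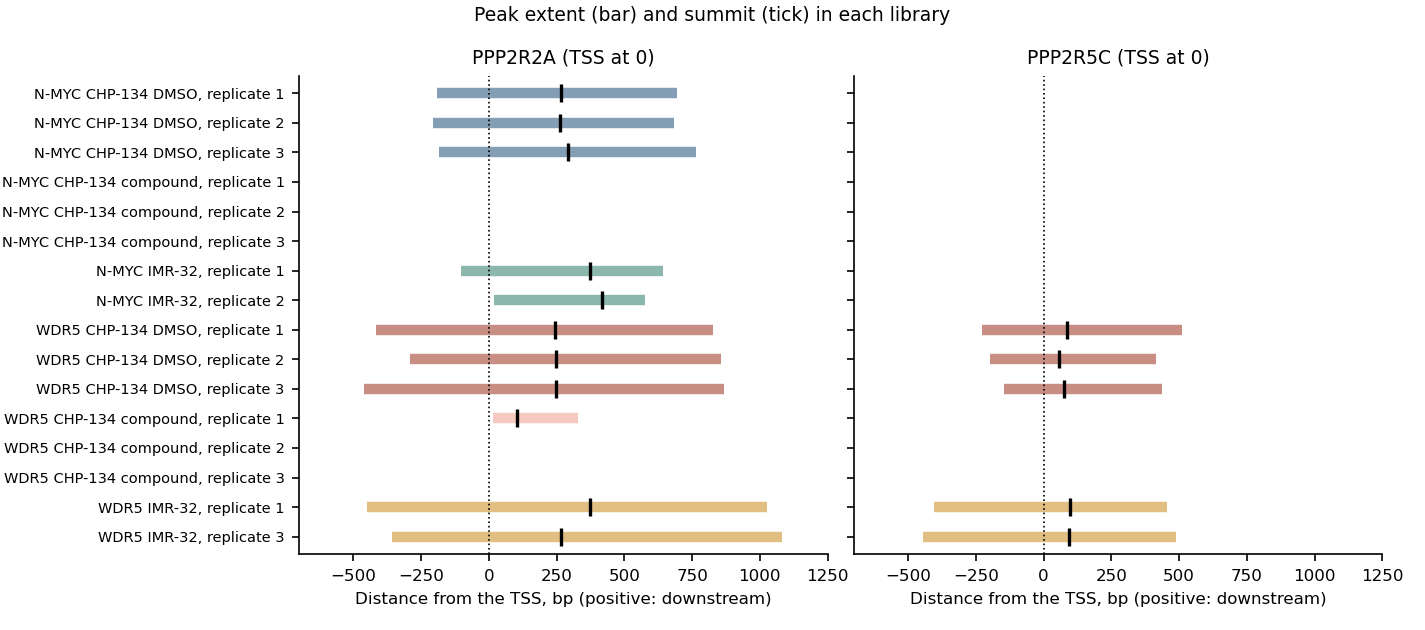
Extent (bar) and summit (tick) of the peak at PPP2R2A (left) and PPP2R5C (right) in each of the 16 libraries, in bp from the TSS. At PPP2R2A the DMSO summits of both proteins lie between 244 and 293 bp downstream, and at PPP2R5C only WDR5 has peaks.

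The DNA under these peaks was searched for E-boxes, the sites that MYC proteins bind with their partner MAX, on both strands of hg19 (the letters CACGTG, and the looser CANNTG that includes them). The 33 member peaks are a few promoters seen again in several lists, with 11 of them from PPP2R2A alone, so they are not independent sites. The shares of a list given below count each peak once, and the member counts are not tested against them. CACGTG was found in 0 of the 33 member peaks, within 100 bp of the summit and also over their whole width. Within 100 bp of the summit it is found in 23.6 to 29.7% of all promoter peaks of the DMSO N-MYC lists and in 16.5 to 19.7% of those of the DMSO WDR5 lists. CANNTG lay within 100 bp of the summit at 16 of the 33 member peaks, among them all 11 peaks of PPP2R2A and none of the 5 of PPP2R5C. In the DMSO lists 58.1 to 61.1% of promoter peaks of N-MYC and 54.0 to 56.7% of those of WDR5 have it. At PPP2R2A the 3 matches around the DMSO summits start 197, 241 and 297 bp downstream of the TSS, and no letters are printed for this gene.

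Windows of 30 bases are shown for other members to let the sites be compared, with the E-box in capitals where there is one, each on the strand of its gene. The first is the CANNTG nearest to an N-MYC summit at PPP2CA (DMSO replicate 2, 17 bp away). The next 2 are centered on the mean DMSO summit of N-MYC at PPP2R5A and of WDR5 at PPP2R5C, where no E-box lies within 100 bp of a summit. The last 2 come from related genes described further on, PPP2R3C and SET, whose N-MYC peaks do hold CACGTG, 12 and 6 bp from a summit.
PPP2CA, chr5:133561490-133561519, minus strand: cagtggatcgagCAGCTGaacgagtgcaag
PPP2R5A, chr1:212458672-212458701, plus strand: caaactcctccttcccaccccttgcgaggc
PPP2R5C, chr14:102276299-102276328, plus strand: cgggcagcaggatggtggtggatgcggcca
PPP2R3C, chr14:35591485-35591514, minus strand: gaactcctgggtCACGTGgtgcgcacgcgc
SET, chr9:131451190-131451219, plus strand: ccgctcgctcacCACGTGacgcgccggccg
A match describes these letters only, and no match says nothing of what the protein binds.

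PPP2R5C encodes B56γ, and its WDR5 peak is at an internal start site. The gene spans chromosome 14, 102228046 to 102394326 (plus strand), while the peaks sit at an internal TSS at 102276242, with summits 86, 55 and 76 bp downstream of it in DMSO replicates 1, 2 and 3, in coding sequence of the first exon of that transcript. A long noncoding RNA gene, ENSG00000259088, shares this promoter. The WDR5 percentiles were 97.2, 92.1 and 89.9, a mean of 93.0 ± 3.75 (SD, n = 3), below every DMSO value of PPP2R2A. The peaks were 739, 615 and 583 bp wide, and 46.3 to 50.2% of the bases within 100 bp of their summits were G or C, where the median over promoter peaks of these lists is 65.7 to 67.2%.

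No N-MYC list had a peak within 1 kb of any TSS of PPP2R5C, in either line or treatment. The nearest N-MYC peaks were 1075 bp away (compound replicate 3), 1324 bp (IMR-32 replicate 1), 2268 bp (IMR-32 replicate 2) and 4379 bp (DMSO replicate 3), and over 30 kb away in the others. Promoters of this kind are few. Of 823 genes with WDR5 in every DMSO list, 28 (3.40%) had no N-MYC peak in any DMSO list, and of 537 with WDR5 in every list of both lines, 18 (3.35%) had no N-MYC in either line.

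PPP2R5A, which encodes B56α, had the opposite pattern, with N-MYC and no WDR5 peak in any list. This is common, since 2606 of the 5634 genes with N-MYC in every DMSO list had no WDR5 peak in any DMSO list. The N-MYC percentiles of PPP2R5A were 62.4, 28.1 and 35.1 with DMSO, 41.9 and 74.8 with the compound (replicates 1 and 3) and 69.2 in IMR-32 replicate 1. DMSO and compound libraries overlap. The summits lay at −74, −91 and −30 bp from the TSS with DMSO (negative is upstream). PPP2CA, the catalytic subunit Cα, had N-MYC at 47.5 and 41.8 in DMSO replicates 1 and 2 and at 19.0 and 17.5 in compound replicates 1 and 3. In each group 1 list had no peak, and with a missing peak entered as percentile 0 the groups overlap. The summits ranged from −539 to 243 bp from the TSS. PPP2CA had WDR5 in replicate 1 alone, at 29.0 with DMSO and 22.96 with the compound, which are the longest WDR5 lists. Its promoter is shared with PPP2CA-DT, MIR3661 and ENSG00000272772.

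The remaining subunits were near the floor of the lists. N-MYC was at PPP2R2B (B55β) in DMSO replicate 1, at percentile 16.7, and at PPP2CB (catalytic Cβ) in DMSO replicate 2, at 23.6. The scaffold gene PPP2R1A had N-MYC in DMSO replicate 3 (14.8) and IMR-32 replicate 1 (3.40), and PPP2R1B in DMSO replicate 1 (5.60). None of these 4 genes had a WDR5 peak. PPP2R2C and PPP2R2D, the remaining B55 genes, had no peak of either protein.

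**Figure D3:**
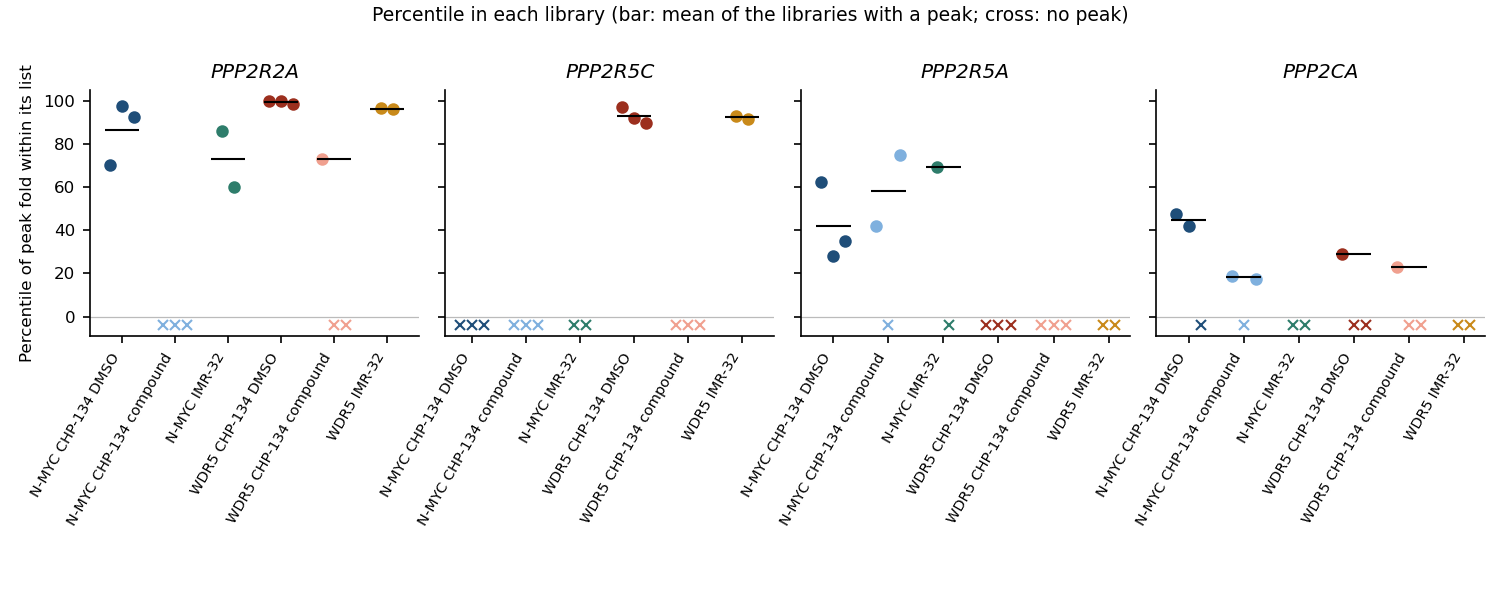
Percentile of the peak in each library for the 4 genes with a peak in at least 2 lists of a group (points are libraries, bars the mean of those with a peak, crosses libraries with no peak). PPP2R2A has N-MYC at 70.0 to 97.7 with DMSO and no N-MYC peak with the compound, while PPP2R5A and PPP2CA have N-MYC peaks in compound replicates 1 and 3.

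N-MYC had no peak at PPP2R2A in any of the 3 compound lists, and the nearest N-MYC peak lay more than 17 kb away in each. The lists of replicates 1 and 3 hold 11249 and 12313 peaks and that of DMSO replicate 2, where PPP2R2A stood at 97.7, holds 9125. The part of depth in the missing peak was not tested. With a missing peak entered as percentile 0, the difference between compound and DMSO was −86.7 points, and it was −53.6 among equal numbers of the strongest peaks of each list, where the groups overlap. Because the site was chosen with N-MYC present in DMSO-treated cells, this difference is a description and carries no test. All 3 compound libraries were below all 3 DMSO libraries at 5.71% of 10482 genes, and all 3 were above at 0%. The list of compound replicate 2 holds 2964 peaks, and missing peaks count as 0 for every gene. The order thus went the same way at all separated genes, and nothing particular to PPP2R2A is read from it. A fall at least as large was found at 4 genes, RNF220, RNPS1, RPL5 and PPP2R2A, which are named after their values were seen.

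Of 5634 genes with N-MYC in all 3 DMSO lists, 100 (1.77%) had none in any compound list, and 103 (1.83%) had none in compound replicates 1 and 3. Among the 1002 genes whose mean DMSO percentile was at least that of PPP2R2A, 2 (0.200%) had none, PPP2R2A and the ribosomal protein gene RPL5. That limit is the value of PPP2R2A itself and was set after its missing peaks were seen, so it includes PPP2R2A by construction and nothing is read from the share. RPL5 had N-MYC at a mean percentile of 90.8 and WDR5 at 99.2 with DMSO. Genes with a common promoter are counted separately, and with each promoter counted once 88 of 4786 (1.84%) had lost every peak.

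The share of such genes differed by the WDR5 level with DMSO. Among genes with N-MYC in every DMSO list, 27 of 113 (23.9%) with a mean WDR5 percentile of at least 95 had no N-MYC peak with the compound, PPP2R2A among them. It was 0 of 197 at a WDR5 percentile of 75 to 95, 1 of 366 (0.273%) below 75, 13 of 2352 (0.553%) where WDR5 was in 1 or 2 lists, and 59 of 2606 (2.26%) where no list had WDR5. With each promoter counted once, the highest class holds 22 of 94 (23.4%). The classes were set after the values were seen, so these shares are a description.

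**Figure D4:**
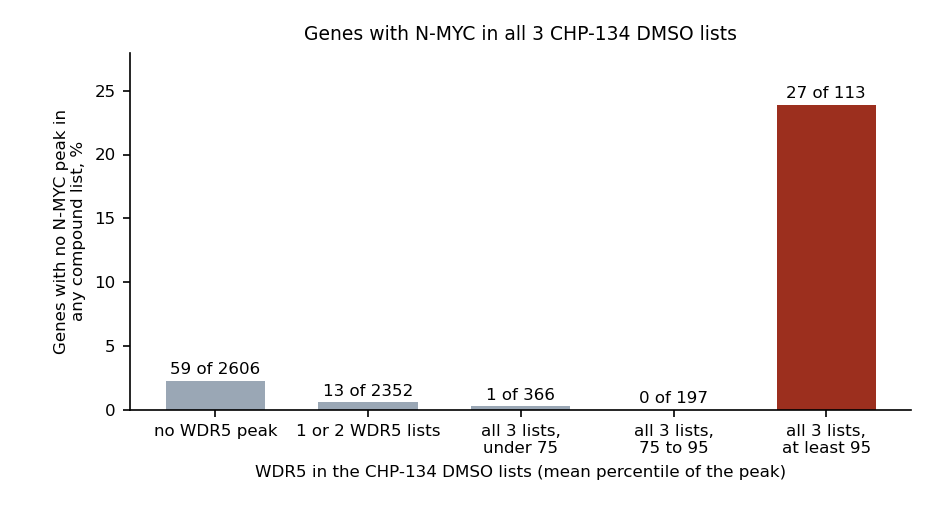
Percent of genes with N-MYC in all 3 CHP-134 DMSO lists that had no N-MYC peak in any compound list, by WDR5 in the DMSO lists (none, 1 or 2 lists, or all 3 lists with the mean percentile given). The class of PPP2R2A, at least 95, is at 23.9% and the other classes are at 0 to 2.26%.

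WDR5 at PPP2R2A was listed in compound replicate 1 alone, at percentile 73.1 and a fold of 4.72, where it ranks 1606 of 5973. That peak was 314 bp wide with its summit 104 bp downstream of the TSS, against 244 to 247 bp with DMSO. The list of replicate 1 is the longest of all WDR5 lists, while replicates 2 and 3 hold 15 and 401 peaks, so a missing peak there tells little. Of 474 genes with WDR5 in every DMSO list and in compound replicate 1, 199 (42.0%) had a lower percentile in that library than in every DMSO library. PPP2R2A is one of them, and because it was picked for its high DMSO value this is a description. Counting genes in at most 1 compound list, as PPP2R2A is, gives 670 of 823 (81.4%), and 94 of 130 (72.3%) where the mean DMSO percentile was at least 95. PPP2R5C had no WDR5 peak in any compound list, as had 319 of the 823 genes with WDR5 in every DMSO list (38.8%). In replicate 1 alone, 349 (42.4%) had none.

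Within the compound libraries, WDR5 minus N-MYC at PPP2R2A was 24.4 points with missing peaks at 0. The difference rests on WDR5 replicate 1, without which it is 0. With a peak in that library alone, every split of the libraries gives a difference of the same size. The outcome of the permutation test that was run was therefore fixed, and its p-value is not given. Of 9363 genes, 0.0320% had every WDR5 library above every N-MYC library and 18.2% every one below. Fold was also compared promoter by promoter with limma, on quantile normalised log2 fold over promoters with a peak in every list compared. For N-MYC with the compound against DMSO no member was among the 1877 promoters tested, because each lacked a peak in some list. None of the 1877 passed an adjusted p of 0.05 in limma, and 10 had an unadjusted p under 0.05. With replicate number as a block, by which these libraries pair, 121 had an unadjusted p under 0.05 and 2 passed, both lower with the compound. The fit without the block ignores that pairing, so its lack of calls does not show that N-MYC was unchanged. Without compound replicate 2, 4243 promoters could be tested, PPP2R5A was the 1 member among them, and it did not pass. For WDR5 only 13 promoters could be tested (30.8% passed as higher and 30.8% as lower with the compound), and no member was among them.

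Between the lines, N-MYC was at PPP2R2A in both IMR-32 libraries, at 85.8 and 60.3, a mean of 73.0 ± 18.1 (SD, n = 2). These values lie within the range of the DMSO libraries or below it, and the groups overlap. CHP-134 minus IMR-32 was 13.6 points, given with no test because the site was chosen with N-MYC present in CHP-134. At 25.4% of 10428 genes every CHP-134 library was above every IMR-32 library, and at 3.09% every one was below. Ranked among equal numbers of the strongest peaks of each list it was −5.39 points. In limma over 2393 promoters, N-MYC log2 fold at PPP2R2A was higher in CHP-134 by 0.20, and −0.10 without DMSO replicate 2. This difference is likewise given with no test. Of the 2393 promoters, 0.418% passed as higher and 0.125% as lower in CHP-134.

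The N-MYC summit at PPP2R2A was farther into the gene in IMR-32 cells. It lay 374 and 417 bp downstream of the TSS, in intron 1, against 263 to 293 bp with DMSO in CHP-134 cells. This shift of 122 bp is given with no test because the site was chosen with N-MYC present in CHP-134. The summits of the lines did not overlap, and this was so at 25.5% of 2532 genes. The IMR-32 peaks were narrower at 749 and 558 bp, against 889 to 952 bp. The median N-MYC peak is also narrower in the IMR-32 lists, at 351 and 331 bp against 511 to 543.5 bp. The narrower width is therefore not particular to this site. Leaving out each library in turn gives shifts of 100 to 143 bp. The WDR5 summits were also farther in, at 372 and 266 bp (IMR-32 replicates 1 and 3) against 244 to 247 bp, with no overlap. The shift of 73 bp rests mainly on replicate 1 and is given with no test because WDR5 in CHP-134 chose the gene. The share of genes whose WDR5 summits separate between the lines was not counted, so nothing is read from the lack of overlap.

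WDR5 at PPP2R2A stood at 96.7 and 96.1 in IMR-32 replicates 1 and 3, at ranks 57 of 1693 and 50 of 1258. Of the 823 genes with WDR5 in every DMSO list, 65.2% also had it in both IMR-32 lists. The IMR-32 percentiles of PPP2R2A are below every DMSO value of CHP-134, as at 23.5% of those 537 genes, while 8.38% had the opposite order. In the promoter fit its log2 fold was higher in CHP-134 by 0.69 after quantile normalisation and lower by a small amount, −0.10, after median centring, so that no direction can be given. WDR5 and N-MYC percentiles within IMR-32 differed by 23.3 points (two-sided exact permutation test, p = 0.333, the lowest that 2 against 2 can give).

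PPP2R5C had WDR5 at 93.0 and 91.8 in IMR-32 cells, within the DMSO range of 89.9 to 97.2, a difference of −0.643 points from CHP-134 (two-sided exact permutation test, p = 0.9). Its summits were 99 and 95 bp downstream, against 55 to 86 bp (24.7 bp farther, exact permutation test, p = 0.2). For its WDR5 summits too, the share of genes that separate between the lines was not counted, so nothing is read from this. In limma its log2 fold was −0.53 in CHP-134 relative to IMR-32 with a 95% interval of −1.18 to 0.11 (adjusted p = 0.305 over 428 promoters, of which 3.74% passed as higher and 3.04% as lower in CHP-134). After median centring it was −0.95 with an adjusted p of 0.0183, so that this call depends on the normalisation.

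Another 32 genes of the pathway were examined in the same way: other regulatory subunits, factors that assemble, activate or methylate the enzyme, its inhibitors with their kinase, and subunits of the related phosphatases PP4 and PP6. N-MYC was at 14 of the 32 in at least 2 DMSO lists (39.4% of all protein-coding genes), at 14 with the compound (31.3% of all) and at 7 in IMR-32 cells (16.2% of all). WDR5 was at 5 with DMSO (PPP2R3C, BOD1, CIP2A, MASTL and PPP4R3A), against 8.73% of all, at 0 with the compound, against 1.37%, and at 4 in IMR-32 cells (PPP2R3C, PPP2R5B, MASTL and SET), against 4.99%. In all 3 DMSO lists WDR5 was at 0 of the 32, against 4.09% of all protein-coding genes. In the promoter fits, 6 of the 32 were tested for N-MYC with the compound and 7 between the lines, none for WDR5, and 0 passed.

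**Figure D5:**
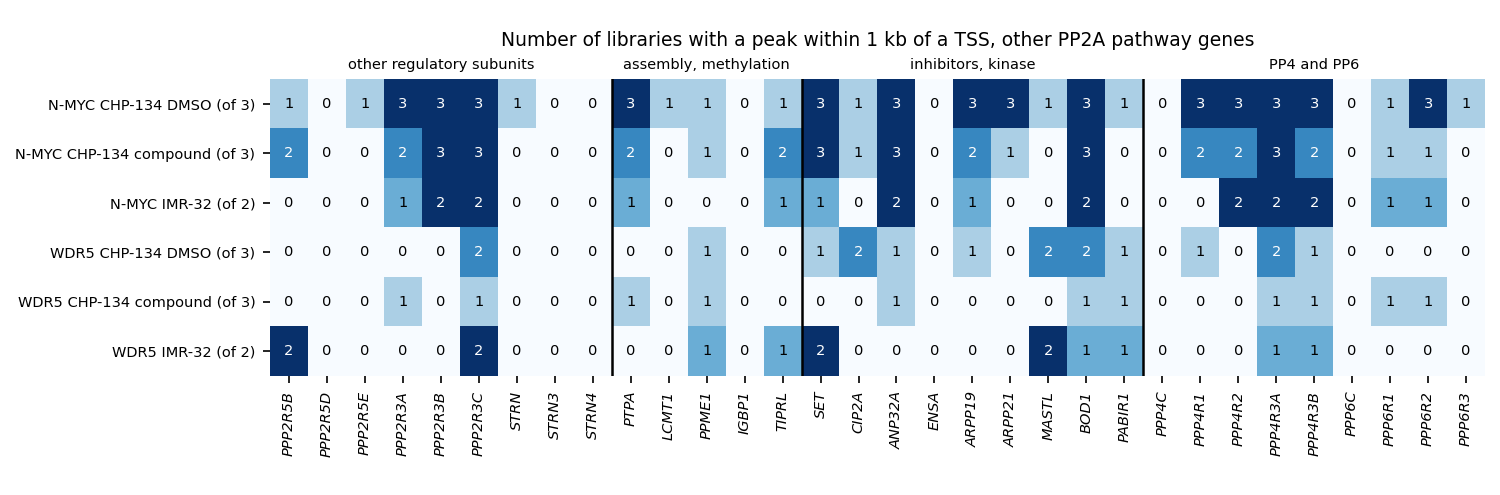
Number of libraries with a peak within 1 kb of a TSS (cell values, shaded by the share of the group's libraries) for 32 other genes of the PP2A pathway in the 6 groups of libraries. WDR5 is in at most 2 of 3 DMSO libraries at any gene, and N-MYC is in all 3 compound libraries at 6 genes.

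PPP2R3C encodes a regulatory subunit of another class. Its N-MYC percentiles were 93.5, 97.6 and 96.5 with DMSO, and 94.7, 98.1 and 94.5 with the compound, in replicates 1, 2 and 3. It holds the CACGTG printed above, and it shares its promoter with PRORP. Its WDR5 peak was weaker, at 42.0 and 81.6 in DMSO replicates 1 and 2, at 33.8 in compound replicate 1, and at 75.2 and 57.2 in IMR-32 cells. BOD1, an inhibitor of B56 complexes in mitosis, had N-MYC at 89.5, 95.03 and 93.8 with DMSO and 89.6, 84.0 and 73.4 with the compound, with summits at −204 to 600 bp from the TSS, and WDR5 at 68.1 and 67.4 with DMSO.

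SET, an inhibitor of PP2A, had N-MYC in all DMSO lists (91.0, 91.2 and 83.7) and all compound lists (63.3, 64.3 and 88.4), but at more than 1 of its start sites. Its WDR5 peaks in IMR-32 cells (53.8 and 62.3) have summits at −5147 and −5287 bp from its reference TSS, near another start site. PPP4R3A, a regulatory subunit of PP4, had N-MYC in every N-MYC list (47.8 to 95.9) and WDR5 at 79.2 and 2.93 with DMSO. MASTL, the kinase that acts through ENSA and ARPP19 to inhibit B55 complexes, had WDR5 at 54.2 and 86.3 with DMSO and 68.4 and 74.8 in IMR-32 cells. CIP2A, an inhibitor of PP2A, had WDR5 at 89.6 and 21.4 with DMSO and none in IMR-32 cells, and PPP2R5B, another B56 subunit, had WDR5 only in IMR-32 cells (49.9 and 50.1), with summits at −6974 and −7019 bp from its reference TSS, at a promoter shared with ATG2A. MASTL and CIP2A share theirs with YME1L1 and DZIP3.

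The genes whose pattern over the 16 lists was most like that of PPP2R2A were found by the mean absolute difference in percentile, with missing peaks at 0. They were RPS3A (5.75 points), CCT7 (7.33), RPS10 with RPS10-NUDT3, which share a promoter (7.44), and RPL15 (7.81). RPS3A, RPS10 and RPL15 encode ribosomal proteins and CCT7 a chaperonin subunit. All have WDR5 in every DMSO list, at mean percentiles of 98.4 to 99.2, and in 1 compound list. Their mean N-MYC percentiles with DMSO were 60.3 to 78.6, below that of PPP2R2A. N-MYC was in no compound list at RPS3A and CCT7 and in 1 at RPS10 and RPL15. The genes were matched on these same 16 lists, so the traits listed follow from the match. The 16 points of each comparison also share their libraries, so the likeness is a description.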

How the data were processed

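N-MYC and WDR5 ChIP-seq was analysed in 16 libraries of 6 groups taken from the sample labels. Per the methods, adapters were removed with Cutadapt, Bowtie2 placed the reads on hg19, and MACS2 called peaks at a q-value of 0.05, one list per library. The deposited lists hold the authors' fold (a ratio to local background), the p-value and q-value as −log10, a score made from the q-value, and the summit. Depth is not given, so no interval based on counts was possible. All 94408 peaks ended within the GRCh37 chromosomes, and TSSs came from GENCODE 44 mapped to GRCh37.

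For each gene the peak with the highest fold within 1000 bp of a TSS was kept. Missing peaks were entered at percentile 0, chosen after PPP2R2A was seen to be unlisted. Tests were exact permutation tests over libraries and limma 3.58.1 in R 4.3.3, with Benjamini-Hochberg adjustment over all genes or promoters, called at 0.05. They were tested on simulated data. The simulated libraries for limma did not pair by replicate number and were fitted without a block. That check therefore does not cover the pairing of the N-MYC DMSO and compound libraries. Tests of PPP2R2A that use the DMSO lists were run on percentiles, on summit positions and in limma. Their p-values are not given, since the site was chosen by its WDR5 fold there, with N-MYC present. The methods state that the ChIP-seq was done independently for each replicate, without saying whether cultures differed, so p-values measure the spread between these libraries. Replicate numbers paired N-MYC DMSO and compound libraries in the data (correlations of deviations 0.617 to 0.658 for same numbers), but not the lines. Correlations for different numbers were under 0, which follows from these because deviations within a group sum to 0.

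Named genes were the 10 members in every list, those of 32 pathway genes with WDR5 in at least 2 lists of a group, and the 5 most like PPP2R2A. Members and lists were chosen with earlier results of these data known. Alternatives were the −log10 q-value as the measure, other rankings, a distance of 500 bp, basic transcripts, a q-value of 0.01, median centring, a replicate block, and leaving out each library.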

Additional observations from a re-analysis of the deposited data

How the results depend on the processing

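With missing peaks at 0, the N-MYC percentile at PPP2R2A with the compound was 0 under every alternative run. The direction of the difference was therefore fixed in advance, and only the DMSO value could move. The difference from DMSO was −53.6 to −94.98 points (−81.2 to −94.98 when a library was left out). Among equal numbers of strongest peaks it was −53.6 and the groups overlapped. CHP-134 minus IMR-32 reversed to −5.39 points with equal numbers of strongest peaks and was 0.864 to 26.4 when a library was left out. In limma it was −0.10 without DMSO replicate 2 and up to 0.54 when another library was left out. Leaving out a library gave WDR5 minus N-MYC summit positions of −33.0 to −18 bp at PPP2R2A. WDR5 minus N-MYC with the compound was 0 among equal numbers of strongest peaks and 0 to 36.5 when a library was left out, and too few promoters were in every list to rank it among those.

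Asking for a peak in at least 1 list gives N-MYC at 7 of the 10 genes with DMSO (50.1% of all protein-coding genes) and at 3 in IMR-32 cells (30.1%), and WDR5 at 2 with the compound (17.3%). Asking for every list gives 0 for N-MYC with the compound (11.3% of all), where leaving out a library gives 0 to 2, and leaving one out gives 2 to 3 with DMSO. Median centring moved the WDR5 fit between lines from 0 to 1 member called (PPP2R5C), with 147 promoters called in place of 29, and PPP2R2A there to −0.10. The cause was not tested. Promoters called between the lines were 13 for N-MYC and 29 for WDR5, against 80 and 72 with the −log10 q-value and 32 and 47 with the replicate block, and as few as 0 and 2 without 1 IMR-32 library. For the compound they were 0 for N-MYC (2 with the block) and 8 for WDR5 (5 with the −log10 q-value, 47 without replicate 2). Counting each promoter once, using compound replicates 1 and 3 alone, and leaving out libraries for the N-MYC summit shift were chosen after seeing the data. The replicate block changed no call for a member, and left the difference between the WDR5 and N-MYC summits at −27.7 bp.

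An exact permutation test of 3 against 3 libraries cannot pass 0.05, while the limma fits can. The short compound lists (2964 N-MYC peaks, and 15 and 401 WDR5 peaks) limit what a missing peak can show, and no read counts were used.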
